A study of Mus musculus with 3 samples.

Results

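The Hox genes encode homeodomain transcription factors that are arranged in the clusters HoxA, HoxB, HoxC and HoxD. All protein-coding genes of the GENCODE M21 mouse annotation whose symbol is Hoxa, Hoxb, Hoxc or Hoxd followed by a number were taken, which gave 39 genes of 21938 protein-coding genes. HoxA held 11 of them, HoxB 10, HoxC 9 and HoxD 9, and all 39 had an annotated 3′UTR, as 21022 protein-coding genes did.

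Hox genes give the cells of an embryo their position along the body axis. Genes at the 3′ end of a cluster, with low paralog numbers, act towards the head, and genes at the 5′ end, with high numbers, act towards the tail. The clusters also hold miRNA genes of the miR-10 and miR-196 families, and miR-196 is known to cleave and repress Hox mRNAs, Hoxb8 above all. Argonaute 2 (Ago2) is the protein that a mature miRNA guides to its target site, most often in a 3′UTR.

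The data came from N2A cells, a mouse neuroblastoma line in culture, in a basal state with no treatment. RNA bound to Ago2 was mapped by HITS‐clip, in which UV light links protein to RNA (400 mJ per square cm once, then 200 mJ per square cm 2 times), an antibody to Ago2 (Wako clone 2D4) pulls the complexes down and the attached RNA fragments are sequenced. The 3 libraries, called libraries 1, 2 and 3 after their replicate numbers, formed 1 group, all from cultures at 80% confluency. The labels do not say that they came from separate cultures, so the spread between them may be technical, and there was no control antibody and no other condition to compare with.

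What was deposited is a list of peaks, which are genome intervals with a strand: 711377 in library 1, 498071 in library 2 and 829936 in library 3. It holds no read counts, so the depth behind a peak is unknown, and the absence of a peak does not show that Ago2 was absent. RNA levels were not measured in these libraries, and in such bulk samples fewer cells with a transcript and less of it per cell cannot be told apart. The strand opposite to a gene was counted in the same way throughout as a background in the same place. Of the sympathetic neuroblast markers, 6 of 9 had a 3′UTR peak in each of the 3 libraries, among them Hand2, while Th had none (23.9% of all protein-coding genes had one in each). Neuronal markers did so for 5 of 10 genes, muscle and liver markers for 0 of 6, blood markers for 1 of 6 (Ptprc, with 1, 3 and 3 peaks) and oligodendrocyte markers for 2 of 3, among them Mbp.

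The first question was which Hox mRNAs carried Ago2 in their 3′UTR, by a rule close to that of the study, a peak in every library. The study asked for a significant peak, and here every deposited peak was counted. Hoxb9, Hoxc8 and Hoxc9 had a peak in every library, which is 3 of 39 genes or 7.69%, against 23.9% of all protein-coding genes with a 3′UTR. The 3 genes are neighbours by paralog number and act in the trunk. A peak in at least 1 library was found in 17 Hox genes (43.6%, background 61.9%), and in at least 2 libraries in 6 (15.4%, background 42.2%). By library, 10, 8 and 8 Hox genes had one, where the background was 34.8%, 44.7% and 48.4%. Thus Hox 3′UTRs were below the share of all genes in each library and under each rule.

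Longer 3′UTRs had a peak more often, so the Hox genes were also set against genes of like 3′UTR length. The median Hox 3′UTR was 966 nt long (range 30 to 1987 nt) and that of the other genes 961 nt. When all genes were put in 5 classes by 3′UTR length, 21 Hox genes fell in the middle class (686 to 1304 nt), where 20.8% of all genes had a peak in all libraries and 2 Hox genes did. The next longer class held 9 Hox genes, of which 1 had a peak in all libraries, against 33.7% of all genes there. The shorter classes, at 2.88% and 10.8% of all genes, held 3 and 6 Hox genes with no such peak, and the longest class, at 51%, held no Hox gene. The class shares summed over the 39 genes come to 8.14 genes, and 3 were found.

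On the opposite strand of the same 3′UTRs, 1 Hox gene (Hoxd12) had a peak in all 3 libraries, or 2.56%, close to the background of 2.63%. At least 1 opposite-strand peak was found in 10 Hox genes, or 25.6%, where the background was 38.7%. Outside HoxC the strands were nearly even: 10 of 30 genes had a 3′UTR peak in at least 1 library on their own strand and 8 of 30 on the opposite strand. In HoxC the counts were 7 of 9 genes on the gene strand and 2 of 9 on the opposite strand. The shares on the gene strand, 33.3% and 77.8%, stand beside 61.9% of all genes.

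**Figure D1:**
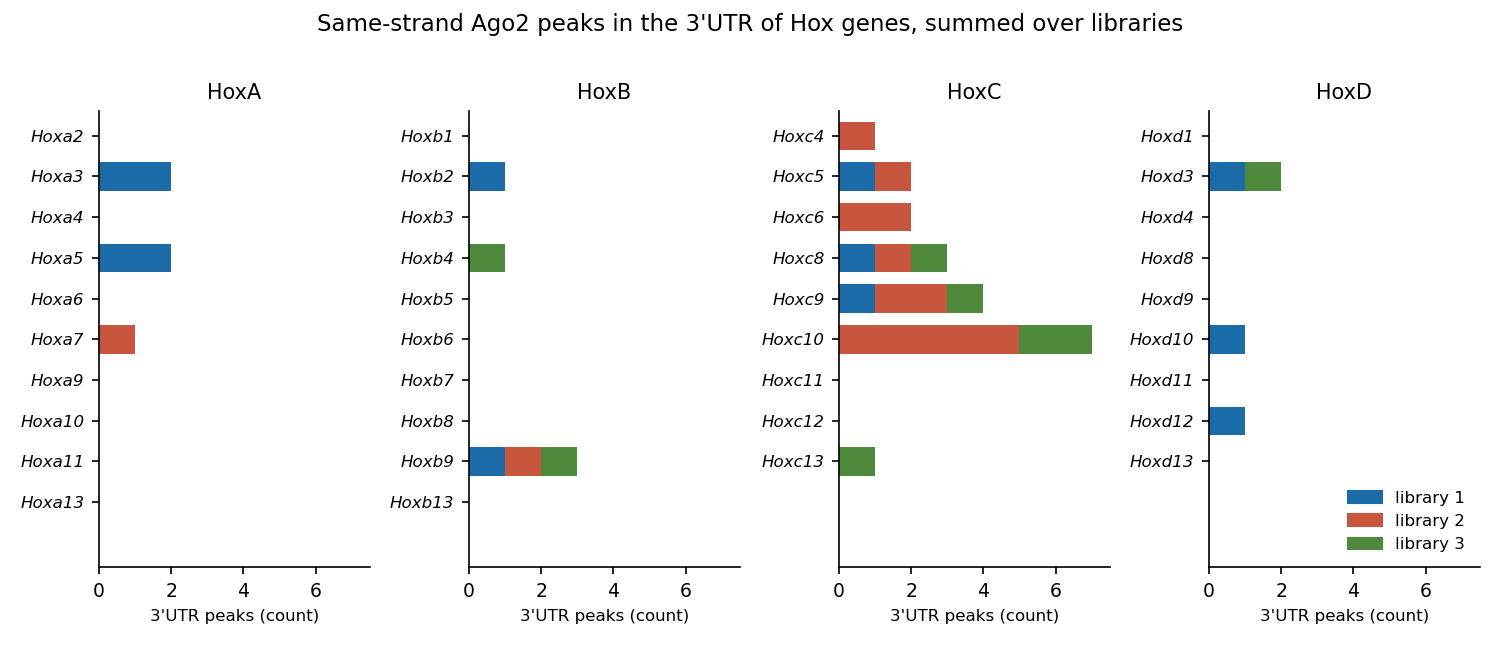
Number of same-strand Ago2 peaks that overlap the 3′UTR of the Hox genes shown (x axis, count), stacked by library and ordered from the lowest to the highest paralog number. Bars with all 3 colours are Hoxb9, Hoxc8 and Hoxc9. Hoxc10 has the most peaks, 7, all from libraries 2 and 3.

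Hoxc9 had 1, 2 and 1 peaks in its 960-nt 3′UTR in libraries 1, 2 and 3. A narrow peak of each library lay near the 3′UTR start: chr15:102984248-102984351 in library 1, chr15:102984271-102984399 in library 2 and chr15:102984169-102984273 in library 3 (GRCm38, plus strand). The peaks of libraries 1 and 2 overlapped over most of the shorter one, and the 3 together shared 3 nt. The other peak of library 2 was 1379 nt wide and ran past the end of the 3′UTR. Hoxc9 was also the one of the 3 genes whose call was kept in all libraries when peaks were limited to widths of 86 to 200 nt. Its narrow peaks, less 30 nt at each end, were soft-masked repeat sequence over 63.6%, 7.25% and 40% of their length.

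Hoxc8 had 1 peak in each library in its 966-nt 3′UTR. Those of libraries 2 and 3 overlapped and crossed the annotated 3′UTR end, by 39 and 69 nt. The peak of library 1 ended 182 nt before that end and met neither of the others. Thus the same gene was marked 3 times, but at one shared place in libraries 2 and 3 and at another in library 1. With widths of 86 to 200 nt, 1 library was left. All 3 peaks were mostly in soft-masked repeat sequence, which took 82.6%, 100% and 100% of the peaks less 30 nt at each end.

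Hoxb9 was the one Hox gene outside HoxC with a 3′UTR peak in every library, again 1 in each. Its 3′UTR is 1839 nt long, the peaks were 82, 83 and 79 nt wide, and no 2 of them overlapped. They began 291, 1767 and 1618 nt into the 3′UTR. The median widths of all peaks in libraries 1, 2 and 3 were 83, 84 and 85 nt, and 79 nt is the smallest value in the list. Widths of 86 to 200 nt, which 24.1%, 31.8% and 42.6% of all peaks had, left none of the Hoxb9 peaks. Soft-masked repeat sequence, taken as for Hoxc8, made up 0%, 100% and 52.6% of them.

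In all, 35 peaks overlapped a Hox 3′UTR, 12 in library 1, 14 in library 2 and 9 in library 3. HoxC genes held 20 of them, of which 10 were met by another library's peak on that strand. The 15 peaks in the other clusters were met in 3 cases. One of these pairs was a peak of 80 nt at chr2:74747445-74747524 in the 3′UTR of Hoxd3, a gene of the head end of HoxD, with the same borders in libraries 1 and 3. Over all protein-coding genes 73.5% of 3′UTR peaks were met in this way, and both Hox counts were below that share.

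By paralog number, the calls in all libraries were 0 of 12 genes in groups 1 to 4, 3 of 15 in groups 5 to 9 and 0 of 12 in groups 10 to 13, beside 23.9% of all genes. In at least 1 library the counts were 6, 7 and 4 genes, beside 61.9% of all genes. The row of neighbours Hoxc4, Hoxc5, Hoxc6, Hoxc8, Hoxc9 and Hoxc10 stood out as a description, since this set was chosen after its values were seen: 6 of 6 had a 3′UTR peak in at least 1 library (background 61.9%), with all 6 in library 2 (background 44.7%) but 3 of 6 in libraries 1 and 3 each (background 34.8% and 48.4%). Hoxc10 had 0, 5 and 2 peaks in its 818-nt 3′UTR. The first 3 peaks of library 2 followed each other end to end across the start of the 3′UTR, and 1 peak of library 3 overlapped the last of that library's 5. Hoxc5 had 1, 1 and 0 peaks, and those of libraries 1 and 2 overlapped. Hoxc6 had 0, 2 and 0 and Hoxc4 0, 1 and 0. With the 3′UTR exons of all its protein-coding transcripts merged, Hoxc4 had a peak in 2 libraries. At the 5′ end of the same cluster, Hoxc11 and Hoxc12 had no 3′UTR peak and Hoxc13 had 1, in library 3.

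Peaks in whole genes, introns included, were then compared between strands. Over all 39 Hox genes, with each peak counted by its midpoint, 62 peaks lay on the gene strand and 38 on the opposite strand in library 1, 57 and 23 in library 2, and 41 and 26 in library 3. The share on the gene strand was 64.8% ± 5.59 (SD, n = 3 libraries), against 64.5%, 73.7% and 78.8% over all protein-coding genes. An exact two-sided sign-flip permutation test of the difference in peak counts between the strands gave p = 0.25, the smallest value that 3 libraries allow. The gene strand had more peaks in all 3 libraries.

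The clusters differed in this share. In HoxC, 33 peaks lay on the gene strand and 13 on the opposite strand in library 1, 42 and 7 in library 2, and 26 and 6 in library 3. The share was 79.6% ± 7.14 (SD, n = 3), higher than 50% in each library (exact sign-flip permutation p = 0.25 for the difference in counts). The 95% Wilson intervals, which cover counting error only, were 57.5 to 82.7%, 73.3 to 92.9% and 64.7 to 91.1%, so each lay above 50%. In the other clusters together the counts were 29 and 25, 15 and 16, and 15 and 20, a share of 48.3% ± 5.42 (exact sign-flip permutation p = 0.75 for the difference in counts). That share turned to the gene strand when exons alone were counted (66.7%) and, slightly, without library 3 (51.0%). HoxA held 30 peaks on the gene strand and 28 on the opposite strand over the libraries, HoxB 15 and 13, and HoxD 14 and 20. The share in HoxC was above that of the other clusters in each library, and the ranges of the library values, 71.7 to 85.7% and 42.9 to 53.7%, did not overlap. Over exons alone the shares were 78.5% ± 12.1 in HoxC and 66.7% ± 11.6 in the other clusters, a difference within the spread between libraries.

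The share also varied with peak width. Peaks of 86 to 200 nt inside HoxC genes lay on the gene strand in 56 cases and on the opposite strand in 2, a share of 96.4% ± 3.57 (SD, n = 3). Over all protein-coding genes the share at this width was 88.5% ± 4.90. Inside the genes of the other clusters there were 11 such peaks, 8 on the gene strand and 3 on the opposite strand (72.2% ± 25.5), and in library 2 their share of 100% was above the 96.3% of HoxC. Among peaks of at most 85 nt the share was 64.1% ± 14.0 in HoxC and 43.7% ± 5.77 in the other clusters, against 59.2% ± 3.09 over all protein-coding genes. In library 1 the narrow peaks of HoxC were on the gene strand in 48% of cases, under the 50% of the other clusters, so within a width class HoxC was not above them in every library.

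**Figure D2:**
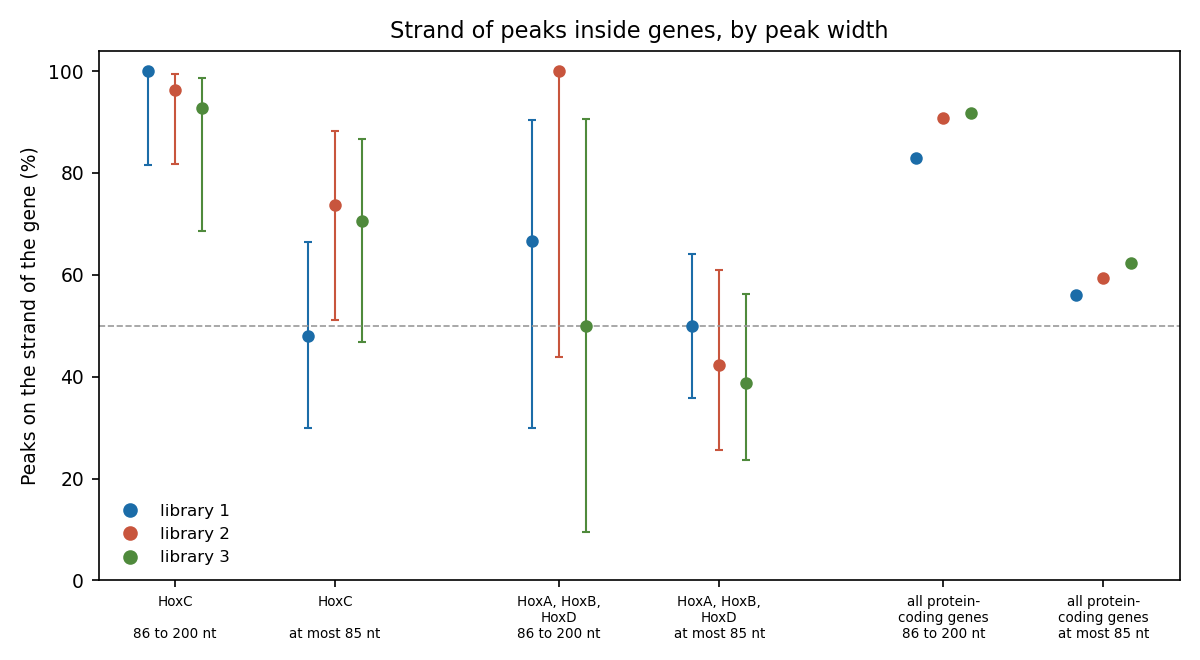
Share of peaks on the strand of the gene (y axis, percent) for peaks with their midpoint in HoxC genes, in genes of the other Hox clusters and in all protein-coding genes, split by peak width. Points are libraries, and bars are 95% Wilson intervals, which cover counting error only and are smaller than the points for all genes. HoxC peaks of 86 to 200 nt sit between 92.9 and 100%, while the narrow peaks of HoxA, HoxB and HoxD sit at or under 50%.

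Density along the clusters was measured from the first to the last Hox gene of each, relative to the peaks per kb and strand of the 19 autosomes and X in the same library. HoxC held 37, 43 and 32 peaks on the gene strand in 116 kb (chr15:102921103-103036852), or 0.320, 0.371 and 0.276 peaks per kb. This was 2.37, 3.94 and 1.76 times the genome's density in libraries 1, 2 and 3 (mean 2.69 ± 1.12, SD; exact two-sided sign-flip permutation p = 0.25, the smallest possible). On the opposite strand the ratio was 0.885 ± 0.346. HoxC was thus above the genome on its own strand in every library, while its opposite strand was above it in libraries 1 and 2 by at most 1.15 times and below it in library 3. The genome's density takes in both strands and the sequence between genes. The density on the gene strand of all protein-coding genes was not measured, so whether HoxC stood above other genes was not tested.

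On the gene strand of the other clusters the ratio was 1.13 ± 0.473 for HoxA, 0.733 ± 0.0674 for HoxB and 0.587 ± 0.358 for HoxD (SD, n = 3). HoxA stood above the genome in libraries 1 and 2 (1.13 and 1.61) and below it in library 3 (0.664), and its mean was 0.896 without library 2 and 0.720 with peaks of 86 to 200 nt. HoxB and HoxD were below it in all 3 libraries. The HoxD mean was 0.383 without library 1. With peaks of 86 to 200 nt the ratios were 4.61 for HoxC, 0.413 for HoxB and 0.106 for HoxD.

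The rise in HoxC began at Hoxc10. From Hoxc13 to the start of Hoxc10, 45.7 kb, the gene strand held 5, 2 and 7 peaks, 0.750 ± 0.261 times the genome's density. From the start of Hoxc10 to the end of Hoxc4, 70.1 kb, it held 32, 41 and 25 peaks, which is 3.39, 6.20 and 2.27 times the genome's density (mean 3.95 ± 2.03, SD, n = 3). The opposite strand of that stretch held 11, 6 and 5 peaks, or 0.842 ± 0.360 times. The border was set after the positions of the peaks were seen, so these values carry no test.

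**Figure D3:**
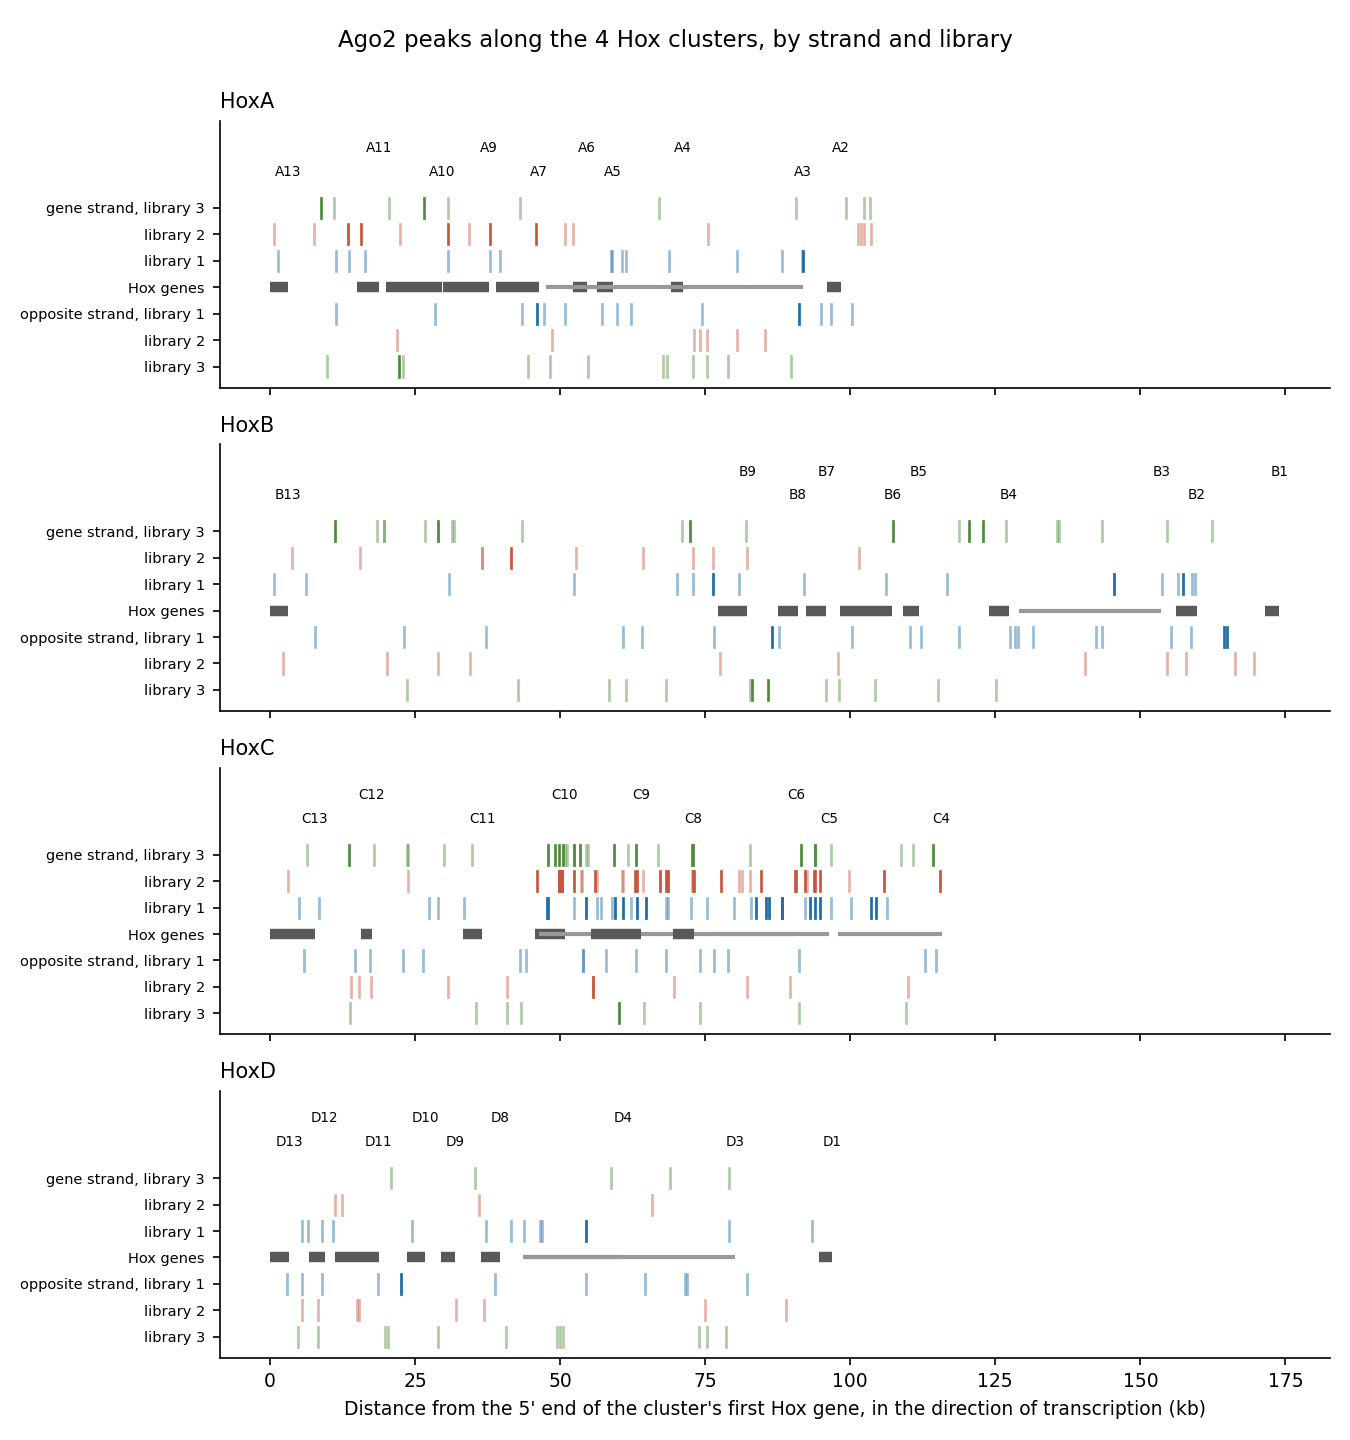
Midpoints of all peaks along the 4 clusters, with distance from the 5′ end of the first Hox gene in the direction of transcription on the x axis (kb). Rows above the genes show the gene strand and rows below the opposite strand, one row per library. Solid marks are peaks of 86 to 200 nt and pale marks are other widths. Thick grey bars are Hox genes and thin grey lines are the Hox genes annotated over the longest spans. The gene strand of HoxC is crowded with solid marks from Hoxc10 on, where it held 32, 41 and 25 peaks.

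**Figure D4:**
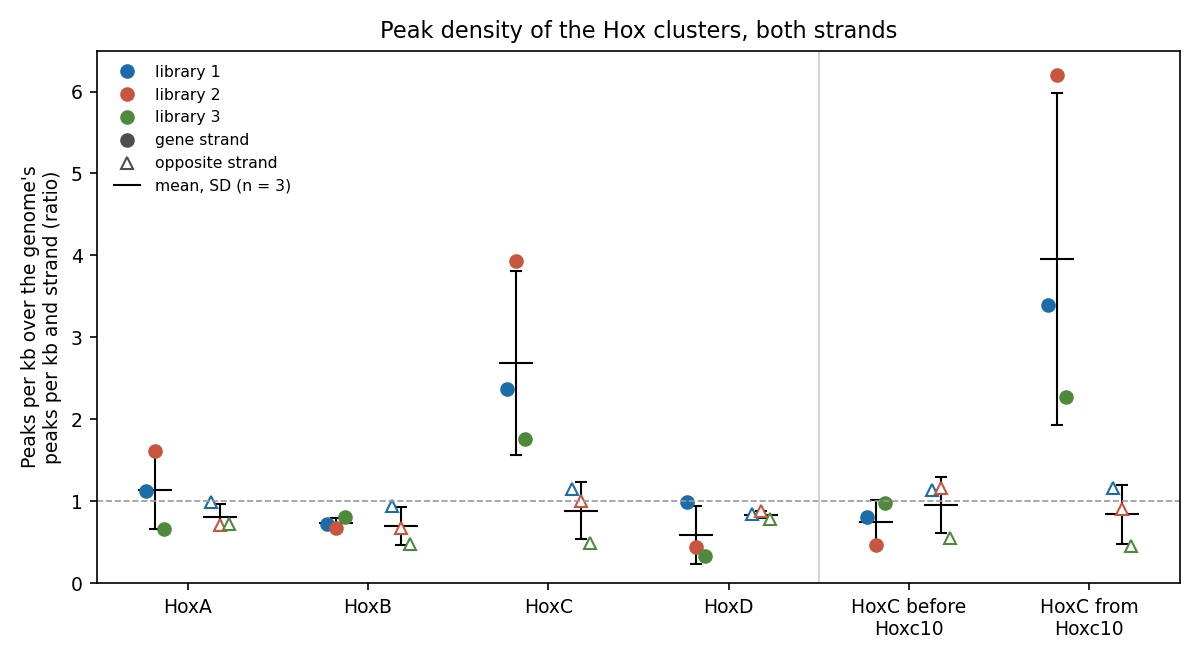
Peaks per kb of each Hox cluster divided by the peaks per kb and strand of the genome in the same library (y axis, ratio, with 1 dashed), for the gene strand (filled circles) and the opposite strand (open triangles). To the right of the grey line HoxC is split at the start of Hoxc10. Points are libraries, and black bars are the mean and SD of 3. The stretch from Hoxc10 on reaches 2.27 to 6.20 on the gene strand.

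The genes of this stretch overlap. Hoxc5 is annotated at chr15:102967443-103017429, by a long transcript that spans Hoxc6, Hoxc8, Hoxc9 and most of Hoxc10, so a peak in their shared span cannot be given to 1 of them. Counted by overlap with each gene, Hoxc5 had 27, 37 and 21 peaks on its strand and Hoxc6 had 7, 7 and 1. Hoxc10 had 2, 9 and 5 on its strand and 0 on the opposite strand in any library. In its coding sequence Hoxc10 had 0, 5 and 1 peaks, and Hoxc9 had 1, 3 and 0. No Hox gene had a coding-sequence peak in all 3 libraries, where 27.1% of all protein-coding genes did. In at least 1 library 15 of 39 had one, against a background of 68.8%.

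By transcript part, 19.2% ± 3.14 of the gene-strand peaks in Hox genes had their midpoint in a 3′UTR (SD, n = 3), against 14.6% ± 8.76 over all protein-coding genes. Coding sequence took 10.4% ± 4.69 and introns 59.1% ± 7.10, against 10.1% ± 4.91 and 70.6% ± 14.0. In HoxC 68 of 101 gene-strand peaks were intronic. Of these, 56 lay inside the long span of Hoxc5, which also holds Hoxc6, Hoxc8, Hoxc9 and most of Hoxc10, so they cannot be given to Hoxc5 alone. The differences from all genes in the 3′UTR and coding shares were within the spread between libraries. The 5′UTR share of Hox genes was 4.99% ± 0.235, from 3, 3 and 2 peaks, against 0.934% ± 0.316 over all genes. Other exons took 6.34% ± 1.03, against 3.68% ± 0.680. Both of these shares were above those of all genes in each library.

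Width and recurrence of all peaks on the gene strand of the clusters, those between genes included, were set against those of peaks inside protein-coding genes. In HoxC 101 of the 112 cluster peaks had their midpoint in a Hox gene, and in the other clusters 59 of 115 did. Peaks of 86 to 200 nt made up 45.9%, 60.5% and 43.8% of the HoxC gene-strand peaks (50.1% ± 9.08), against 17.1% ± 5.46 in HoxA, HoxB and HoxD and 6.73% ± 5.92 on the opposite strand of HoxC. Over all protein-coding genes the share was 52.2% ± 12.04, so that HoxC was within the spread of all genes and the other clusters were below it in each library. Another library's peak on that strand met 44.2% ± 4.20 of the HoxC gene-strand peaks, 15.2% ± 3.61 of those in the other clusters and 38.4% ± 9.27 of those with their midpoint in any protein-coding gene. The mean of HoxC was thus within the spread of all genes here too, above them in libraries 1 and 3 and level in library 2 (48.8% against 48.9%). The other clusters were below all genes in each library (at most 19.4%, against at least 31.5%). On the opposite strand of HoxC the share was 28.3% ± 14.1, against 18.3% ± 4.12 over all genes, and in library 3 it stood above that of the HoxC gene strand (44.4% against 40.6%). HoxC also held more peaks per kb and wider ones (median 88.5 nt, against 82 nt on the gene strand of the other clusters). The parts of density and of peaks between genes in these shares were not tested. A 24-nt run found again in the clusters was held by 3 of 219 gene-strand peaks tested. Soft-masked repeat sequence made up most of the central part in 18.8% of HoxC gene-strand peaks and in 22.6% of those in the other clusters.

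The clusters hold 7 annotated miRNA hairpins, of which 6 belong to the miR-10, miR-196 and miR-615 families. The mature sequences that the results turn on are shown with the seed (bases 2 to 8) in capitals, since the seed sets which sites a miRNA pairs with. miR-10a and miR-10b share 1 seed and so do miR-196a and miR-196b, and miR-196a-5p is the same at the loci Mir196a-1 and Mir196a-2. The sequences are those of RefSeq (GRCm38.p6).
miR-10a-5p: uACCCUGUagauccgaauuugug
miR-10b-5p: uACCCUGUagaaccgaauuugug
miR-196a-5p: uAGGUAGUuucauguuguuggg
miR-196b-5p: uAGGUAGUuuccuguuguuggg
miR-196a-2-3p: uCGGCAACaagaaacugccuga
miR-615-3p: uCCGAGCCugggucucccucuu

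Mir196b and Mir615 had a peak on their strand in all 3 libraries, which is 2 of 7 hairpins where 8.4% of all annotated hairpins did. Mir196a-2 had one in libraries 1 and 2, Mir10a and Mir196a-1 in library 3, and Mir10b and Gm44463 in none, so that 5 of 7 had one in at least 1 library, where 35.8% of all hairpins did. On the opposite strand no Hox hairpin had a peak in any library, where 13.6% of all hairpins did in at least 1. When the few peaks with a score under 60 were left out, neither hairpin kept a peak in all 3 libraries. The peaks over Mir196b and Mir615 account for 2 of the regions in the clusters that were covered in every library.

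Peaks were read as padded by about 30 nt on each side, since starts reach down to -30 on the chromosomes, and the peak caller is not given in the sources used here. On that reading 30 nt were taken off each end to give a central part, and the arm marked depends on it. In Mir196b, inside an exon of a Hoxa9 transcript (chr6:52230081-52230165, minus strand), the central parts were 25, 27 and 23 nt long. Each covered all 22 nt of miR-196b-5p and none of the 3p arm. Without the trimming the same peaks also overlapped the 3p arm, by 20, 18 and 18 nt. In Mir615, inside a Hoxc5 intron (chr15:103014910-103015001, plus strand), the central parts covered all 22 nt of miR-615-3p in every library, and 1 further peak of library 2 covered 21 nt of miR-615-5p. In library 1 the central part began at the first base of miR-615-3p.

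Mir196a-2, between Hoxc10 and Hoxc9 (chr15:102973350-102973434, plus strand), differed from Mir196b in the arm marked. Its central parts covered all 22 nt of miR-196a-2-3p in libraries 1 and 2, beginning at the first base of that arm in both, and none of miR-196a-5p, of which the untrimmed peaks overlapped 16 nt in each. No peak of any library covered either copy of miR-196a-5p by its central part, and how reads that match 2 loci were treated is not given in the sources used here. The peak of library 3 at Mir196a-1 touched the hairpin's end, with its central part beyond both arms. At Mir10a, between Hoxb5 and Hoxb4, the central part of the library 3 peak was 28 nt long and covered all 23 nt of miR-10a-5p.

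**Figure D5:**
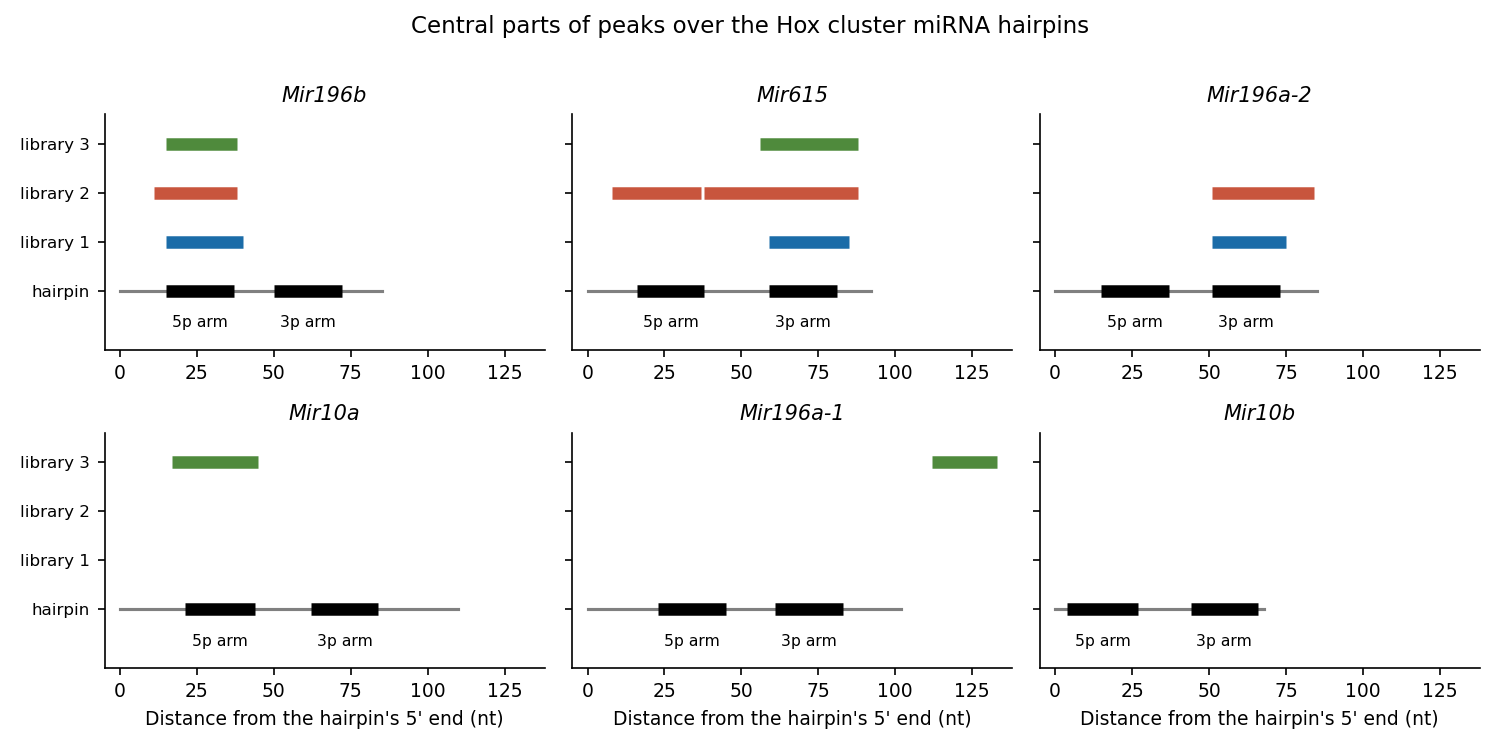
Central parts of the peaks (coloured bars, one row per library) over 6 miRNA hairpins of the Hox clusters, with distance from the 5′ end of the hairpin on the x axis (nt). Grey lines are the hairpins and black bars their mature arms. Mir196b is covered over its 5p arm in all 3 libraries, Mir615 over its 3p arm in all 3, Mir196a-2 over its 3p arm in libraries 1 and 2, and Mir10b has no peak.

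The next question was whether the peaks of Hox 3′UTRs lay on sites for the miRNAs of the same clusters. A site was the exact match to seed bases 2 to 8, which reads ACTACCT for miR-196 and ACAGGGT for miR-10 in the mRNA strand. Hox 3′UTRs held 13 miR-196 sites in 9 genes, among them Hoxa4, Hoxa5, Hoxa7 (4 sites), Hoxa9, Hoxb1, Hoxb6, Hoxb7 and Hoxc8 (2 sites). That is 23.1% of Hox genes against 6.10% of all genes, and 3.40 sites per 10 kb of 3′UTR against 0.455. miR-10 sites numbered 4, in 4 genes, among them Hoxa3, Hoxb3 and Hoxd1, or 1.05 per 10 kb against 0.997. So the Hox 3′UTRs were rich in miR-196 matches and held miR-10 matches at about the density of all genes.

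No miR-196 or miR-10 site of a Hox 3′UTR lay under a peak in any library, on either strand. Over all protein-coding genes, 28.9% of 1416 miR-196 sites and 23.5% of 3107 miR-10 sites lay under a same-strand peak in at least 1 library, and 8.83% and 9.78% under one of the opposite strand. By library, 6.64%, 16.7% and 15.7% of the miR-196 sites of all genes lay under a same-strand peak. A count of 0 of 13 allows a share of up to 23.1%, and 0 of 4 allows up to 75%. The 13 miR-196 sites are in 9 genes and so are not independent. Of them 5, in Hoxa4, Hoxa9, Hoxb1, Hoxb6 and Hoxb7, are in 3′UTRs with no peak in any library. For the other 8 the limit of 3 over n is 37.5%, against 36.2% of such sites over all genes with a 3′UTR peak in at least 1 library. These values are close, the limit is rough and the sites are not independent, so a difference was not decided for these sites. For miR-10 the number of sites was too small to show a difference. The 7 let-7 sites, whose seed match shares letters with that of miR-196, and the 1 miR-615-3p site of Hox 3′UTRs were also under no peak, where 31.6% and 25% of such sites over all genes were.

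The sites nearest to a peak, and those of Hoxa7, the gene with the most matches, are given with the seed match in capitals (GRCm38; the coordinates are those of the match, and the base after it follows in lower case). The Hoxa5 and Hoxa7 sites are on the minus strand and that of Hoxc8 on the plus strand.
Hoxa5 site, chr6:52202119-52202125: atatttttattcaaACTACCTa
Hoxc8 distal site, chr15:102993747-102993753: taaatctttaacatACTACCTa
Hoxa7 site 1, chr6:52215211-52215217: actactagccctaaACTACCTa
Hoxa7 site 2, chr6:52215232-52215238: aaaccatgatcaatACTACCTa
Hoxa7 site 3, chr6:52215364-52215370: agaggcactcccaaACTACCTa
Hoxa7 site 4, chr6:52215401-52215407: ggcacagccaaaatACTACCTa

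The Hoxa5 site lay 9 nt from a peak of library 1, and libraries 2 and 3 had no peak in that 3′UTR. The Hoxc8 site lay 107, 26 and 35 nt from the nearest peak in libraries 1, 2 and 3. These were the closest, so a margin of 30 nt around the peaks would bring in 2 of the 13 miR-196 sites and none of the miR-10 sites. The 4 Hoxa7 sites lay 107 to 297 nt from a peak of library 2 and 2317 to 2507 nt from any of library 3. Each of the 6 sites shown is followed by an A, which Ago2 is known to favour across from the first base of the miRNA.

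Hoxb8 has no exact miR-196 seed match, and its site pairs with miR-196a along the whole miRNA. In the sequence below capitals mark Watson-Crick pairs and lower case a G:U pair, at chr11:96284888-96284909 on the plus strand.
Hoxb8 miR-196a site: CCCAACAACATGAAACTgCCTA
It had 21 Watson-Crick pairs and 1 G:U pair over the 22 bases of miR-196a-5p, the most of any stretch of any Hox 3′UTR. No library had a peak there, and the Hoxb8 3′UTR, 845 nt long, had none at all on its strand.

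Stretches of at least 8 nt that were covered on the same strand in all 3 libraries numbered 3 in the clusters. One lay over Mir196b (chr6:52230098-52230180) and one over Mir615 (chr15:103014939-103015024). The third, of 82 nt at chr15:103003731-103003812 on the plus strand, lay in introns of Hoxc5 and Hoxc6, in no annotated hairpin and outside soft-masked sequence. In library 1 it was covered by a peak 1604 nt wide. None of the 3 held a match to the seeds of 17 miRNAs and families that were searched, among them let-7, miR-9, miR-10, miR-17, miR-21 and miR-196. No Hox 3′UTR held such a stretch, the longest being the 3 nt in Hoxc9.

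The clusters also hold non-coding RNAs, many of them transcribed against the Hox genes. Of 42 annotated non-coding genes other than miRNAs in the clusters or within 20 kb of them, 1 had an exon peak on its strand in all libraries (background 3.04%) and 11 in at least 1 (26.2%, background 35.2%). The 11 fell to 4 without library 1 and to 1 with peaks of 86 to 200 nt. On the opposite strand of their exons 15 of 42 had a peak in at least 1 library, where the background for the opposite strand was 30.6%. That is more genes than on their own strand. The gene with an exon peak on its strand in all libraries was Hoxaas3, an antisense RNA of HoxA, with 2, 1 and 1 peaks. Hotair, an antisense RNA of HoxC, had 2, 0 and 0, and Gm53 near HoxB had 1, 1 and 0. On the opposite strand of their exons Hoxaas3 had 0, 1 and 0 peaks, Hotair 0, 1 and 2 and Gm53 0, 0 and 2. A peak on the strand of an antisense gene is opposite to the Hox genes, and was counted there as the opposite strand.

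Genes that work with the Hox genes or set their activity were counted by the same rule, from lists chosen with earlier results of these data known. Of 47 listed genes, 21 had a peak in their 3′UTR in every library, against 23.9% of all genes. Polycomb genes, which keep Hox clusters silent, had one in 10 of 13 cases. The most peaks were in Rnf2, the ubiquitin ligase of the complex (3, 22 and 19 in libraries 1, 2 and 3), Cbx7 (9, 14 and 14) and Cbx2 (1, 15 and 9). Trithorax genes, which keep Hox genes active, had one in 5 of 6 cases, led by Kmt2a with 15, 32 and 22 peaks, and Rbbp5 had 1, 5 and 9. Wdr5 had 0, 7 and 9 and was the gene of that list without a call.

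The Hox cofactors, which bind DNA together with Hox proteins, had a 3′UTR peak in every library in 5 of 9 cases (background 23.9% for this and the lists that follow). Pknox1 had 3, 12 and 7 peaks, Pbx3 had 1, 12 and 7 and Pbx2 had 0, 12 and 10. Of the retinoic acid genes, through which Hox clusters are switched on in the embryo, 1 of 11 had a call, the receptor gene Rara with 1, 8 and 4 peaks. Cyp26b1, which breaks retinoic acid down, had 0, 5 and 4 and Rarg 0, 3 and 5. The Evx genes beside the clusters and the ParaHox genes of the Gsx, Pdx and Cdx families had 0 calls of 8, and 1 of them, Evx2, had 1 peak in library 2. Many of the regulators have longer 3′UTRs than the Hox genes, 1911 nt in Rnf2 and 4547 nt in Kmt2a, and the part of this length in the counts was not tested.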

How the data were processed

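Ago2 HITS‐clip was measured in 3 libraries of 1 group of N2A cells. The authors called peaks per sample and joined them in 1 table of positions, strand, score and sample. The deposited score runs from 54.6 to 60, is 60 for nearly all peaks, has no stated unit and was used only in an alternative. The submitters' processing notes name FastQC, cutadapt, STAR and mm10. Versions, the peak caller and its threshold are not given in the sources used here.

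Peaks were matched by strand to GENCODE M21 on GRCm38.p6 with Python 3.11.15, numpy 2.4.6, pandas 2.3.3 and pysam 0.24.0. The 3′UTR was that of the protein-coding transcript with the longest one, without the 3-nt stop codon, and a peak counted with an overlap of at least 1 nt. Strand shares, transcript parts and densities used peak midpoints. A part was given in the order 3′UTR, coding sequence, 5′UTR, other exon, intron. Values are given per library, with the mean ± SD, 95% Wilson intervals and the count limit of 3 over n for a count of 0. Tests over libraries were exact sign-flip permutation tests, which cannot go below p = 0.25 with 3 libraries. Genes, sites and peaks are not replicates and were not tested. Counting was checked on simulated peaks. Figures were drawn with matplotlib 3.10.9.

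Genes described by library were those with a 3′UTR peak in every library or a miR-10 or miR-196 match under a peak, and up to 3 per list of other genes with the most 3′UTR peaks. The other genes named were chosen after their values were seen. The members and lists were chosen with earlier results of these data known. Seeds came from the RefSeq table, which held 17 of 18 listed miRNAs. Alternatives were peaks of 86 to 200 nt, trimmed peaks, the highest score, other overlaps and strands, other seed matches and leaving out each library. Some single genes are counted in the totals but not reported here by name or drawn.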

Additional observations from a re-analysis of the deposited data

How the results depend on the processing

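No paired analysis was possible because there was 1 group, with no second group to pair it with. Of 186 values recomputed for 25 results, 33 counts moved by more than 1.5 times or to or from 0, and 5 shares or densities turned to the other side of 50% or of the genome's density. The other shares and densities kept their side, though not always their size.

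With peaks of 86 to 200 nt, Hox genes called in all libraries numbered 1 in place of 3. At this width, genes of paralog groups 1 to 4 with a 3′UTR peak in at least 1 library numbered 2 in place of 6 and of groups 10 to 13 1 in place of 4, hairpins in all libraries 1, shared regions 1, other listed genes 13 in place of 21 and non-coding genes 1 in place of 11. The gene-strand share rose to 91.8% over all Hox genes and to 72.2% outside HoxC, and the HoxA density fell to 0.720, HoxB to 0.413 and HoxD to 0.106, while HoxC rose to 4.61. With a peak in at least 2 libraries 6 Hox genes were called. On the opposite strand 1 Hox gene and 1 other listed gene were called, groups 1 to 4, 5 to 9 and 10 to 13 had 1, 4 and 5 genes, and 0 hairpins were called. With the highest score alone, 0 hairpins and 1 region were counted. Counted over exons, the gene-strand share outside HoxC was 66.7%. With matches to bases 2 to 7, 2 miR-10 and 2 miR-196 sites lay under a peak, and with 30 nt of margin 2 miR-196 sites did.

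Leaving out 1 library in turn gave ranges. Groups 10 to 13 ranged from 2 to 4 genes, with 2 without library 1. Shared regions ranged from 14 to 17 in place of 3, but had to be covered only in the 2 libraries left, which is a looser rule. Non-coding genes ranged from 4 to 11, with 4 without library 1. The gene-strand share outside HoxC ranged from 45.6 to 51.0%, with 51.0% without library 3. The HoxA density ranged from 0.896 to 1.37, with 0.896 without library 2. The HoxD density was 0.383 without library 1.

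The depth is unknown, since no read counts were used here.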
